A study of Mus musculus with 23 samples.

Results

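The genes described here are 10 genes of cell proliferation and the cell cycle, followed through bulk RNA-seq of mouse brain. They were chosen by symbol, with no threshold on any value: the D-type cyclins Ccnd1 and Ccnd2, the replication genes Mcm2, Mcm5 and Pcna, the genes of S, G2 and M phase Mki67, Top2a, Cdk1 and Ccna2, and the CDK1 inhibitory kinase Pkmyt1. They are 10 of 22310 named genes in the count table, and all 10 were among the 16209 genes that passed the filter on low counts. The choice was made with results of these libraries known, and which values led to it is not recorded. The tests below are therefore given as a description of each gene beside the share of all genes called, and not as independent support for any of them.

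The brains came from C57BL/6J mice that carried Csf1R-G793A, a substitution in the receptor for colony-stimulating factor 1 (CSF1R), or were wild type (WT). CSF1R is the receptor that keeps microglia, the resident macrophages of the brain, alive, and PLX3397 and PLX5622 are CSF1R kinase inhibitors given in chow. Mice ate PLX3397 at 290 mg/kg of chow, PLX5622 at 1200 mg/kg or control chow for 14 days. The 23 libraries fall into 6 groups: G793A PLX3397, G793A PLX5622, G793A control, WT PLX3397 and WT PLX5622 with 4 libraries each, and WT control with 3. The labels name no brain region, sex, age or sequencing batch and do not say that each library is a separate mouse, so the p-values measure only the spread between these libraries, which may be technical. Because the chow doses of the inhibitors differ, the compounds' values stand side by side and were not compared with each other. Whether CSF1R carries the substitution cannot be read from expression counts.

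A cell that divides passes from G1 through S phase, where DNA is copied, to G2 and mitosis. D-type cyclins with CDK4 and CDK6 start the passage through G1, the MCM helicase and the PCNA clamp serve DNA copying, cyclin A2 and CDK1 drive S phase and the entry into mitosis, and the kinase PKMYT1 holds CDK1 inactive until then. Most cells of the adult brain do not divide. Those that do include oligodendrocyte precursors, neural progenitors of the subventricular zone and hippocampus, and microglia that repopulate the brain.

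RefSeq promoter sequences (GRCm38.p6) existed under the symbols of 6 of the 10: Mki67, Top2a, Cdk1, Mcm2, Mcm5 and Pcna. In the 250 bases before the transcription start, on both strands, the CCAAT box (CCAAT) was present in 6 of 6, against 33.8% of 32851 promoters in the same table. The cell cycle homology region, or CHR (TTTGAA), through which the DREAM complex holds G2 and M genes silent in resting cells, was present in 4 of 6, against 16% of all promoters. Those were Mki67, Top2a, Cdk1 and Mcm2. An E2F site (TTTCCCGC, TTTGGCGC or TTTCGCGC) was present in Cdk1 and Mcm5, 2 of 6, against 1.53% of all promoters. A match says only that the letters are there. Mki67 and Top2a are shown because they varied together most closely of all pairs of these genes from library to library, as described further on. The windows are chr7:135716380-135716629 for Mki67 and chr11:99024190-99024439 for Top2a, both on the minus strand and written 5′ to 3′, with capitals marking CCAAT and TTTGAA or their reverse complements ATTGG and TTCAAA.
Mki67: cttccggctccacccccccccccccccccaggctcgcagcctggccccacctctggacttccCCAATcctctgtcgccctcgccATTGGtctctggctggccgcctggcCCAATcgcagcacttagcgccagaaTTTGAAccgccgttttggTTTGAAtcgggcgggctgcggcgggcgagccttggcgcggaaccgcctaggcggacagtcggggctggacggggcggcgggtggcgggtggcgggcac
Top2a: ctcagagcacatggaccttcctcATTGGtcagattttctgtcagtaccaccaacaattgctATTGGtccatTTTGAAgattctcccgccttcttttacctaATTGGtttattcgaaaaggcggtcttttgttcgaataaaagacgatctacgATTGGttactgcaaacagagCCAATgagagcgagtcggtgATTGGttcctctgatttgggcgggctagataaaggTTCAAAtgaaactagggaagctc
The Mki67 window held 3 CCAAT boxes and 2 CHR matches, and the Top2a window held 6 and 2.

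Totals ranged between 26.3 M and 48.2 M counts per library. Levels are in CPM, counts divided by the library total after scaling by the trimmed mean of M-values (TMM). Two-sided p-values are from edgeR's quasi-likelihood test with Benjamini-Hochberg adjustment over all 16209 genes, a gene is called at an adjusted p under 0.05, and log2 fold changes carry their standard error. In bulk tissue, fewer cells of a type and less RNA per cell cannot be told apart. Of 15 microglial markers, 14 fell in WT PLX3397 brains and 14 in WT PLX5622 brains, with median log2 fold changes of −2.16 and −2.93. None was called in G793A brains with either inhibitor, where 0.00617% of all genes were called with PLX3397 and 0% with PLX5622. All 15 had a log2 fold change below 0 in both G793A comparisons, with medians of −0.31 with PLX3397 and −0.24 with PLX5622. Microglial marker sums were 334 to 395 CPM in G793A PLX3397, 320 to 392 in G793A PLX5622, 377 to 473 in G793A control, 105 to 151 in WT PLX3397, 60.8 to 114 in WT PLX5622 and 442 to 471 in WT control libraries. Other features set single libraries apart. The cerebellar gene Cbln3 was at 220.5 CPM in G793A PLX5622 replicate 2 and 30.8 CPM in WT PLX5622 replicate 1, against 0.594 to 1.73 CPM elsewhere, and the same WT library held Prl, the pituitary hormone prolactin, at 66.1 CPM. Summed over 6 cerebellar markers, libraries reached 690 CPM in G793A PLX5622, 227 CPM in WT PLX5622 and 239 CPM in WT control. The WT PLX5622 library therefore stands apart by Cbln3 and not by that sum. Of the 6 markers, 4 had a positive and 2 a negative log2 fold change in WT PLX5622 brains, and all 6 a positive one in G793A PLX5622 brains. The activity-induced gene Npas4 was at 185 and 214 CPM in G793A PLX3397 replicates 2 and 4, 139 CPM in G793A PLX5622 replicate 2 and 152 CPM in WT PLX3397 replicate 1, against 3.24 to 26.7 CPM elsewhere.

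The 10 genes covered a wide range of abundance. Per kilobase of the longest annotated transcript, WT control brains held Pcna at 27.9 ± 1.59 CPM, Ccnd1 at 16.6 ± 0.558 and Ccnd2 at 13.5 ± 3.04 (SD, n = 3). Pkmyt1, Mcm5 and Mcm2 formed a middle tier at 1.76, 1.75 and 1.28 CPM per kilobase. Top2a, Ccna2, Mki67 and Cdk1 were lowest, at 0.432, 0.315, 0.192 and 0.0864. Pkmyt1 and Mcm5 lay within each other's spread. Ccnd1 and Ccnd2 overlapped as well, at 16.2 to 17.2 and 10.5 to 16.5. Cdk1 rested on only 5 to 28 counts per library, which limits what its comparisons can show.

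**Figure D1:**
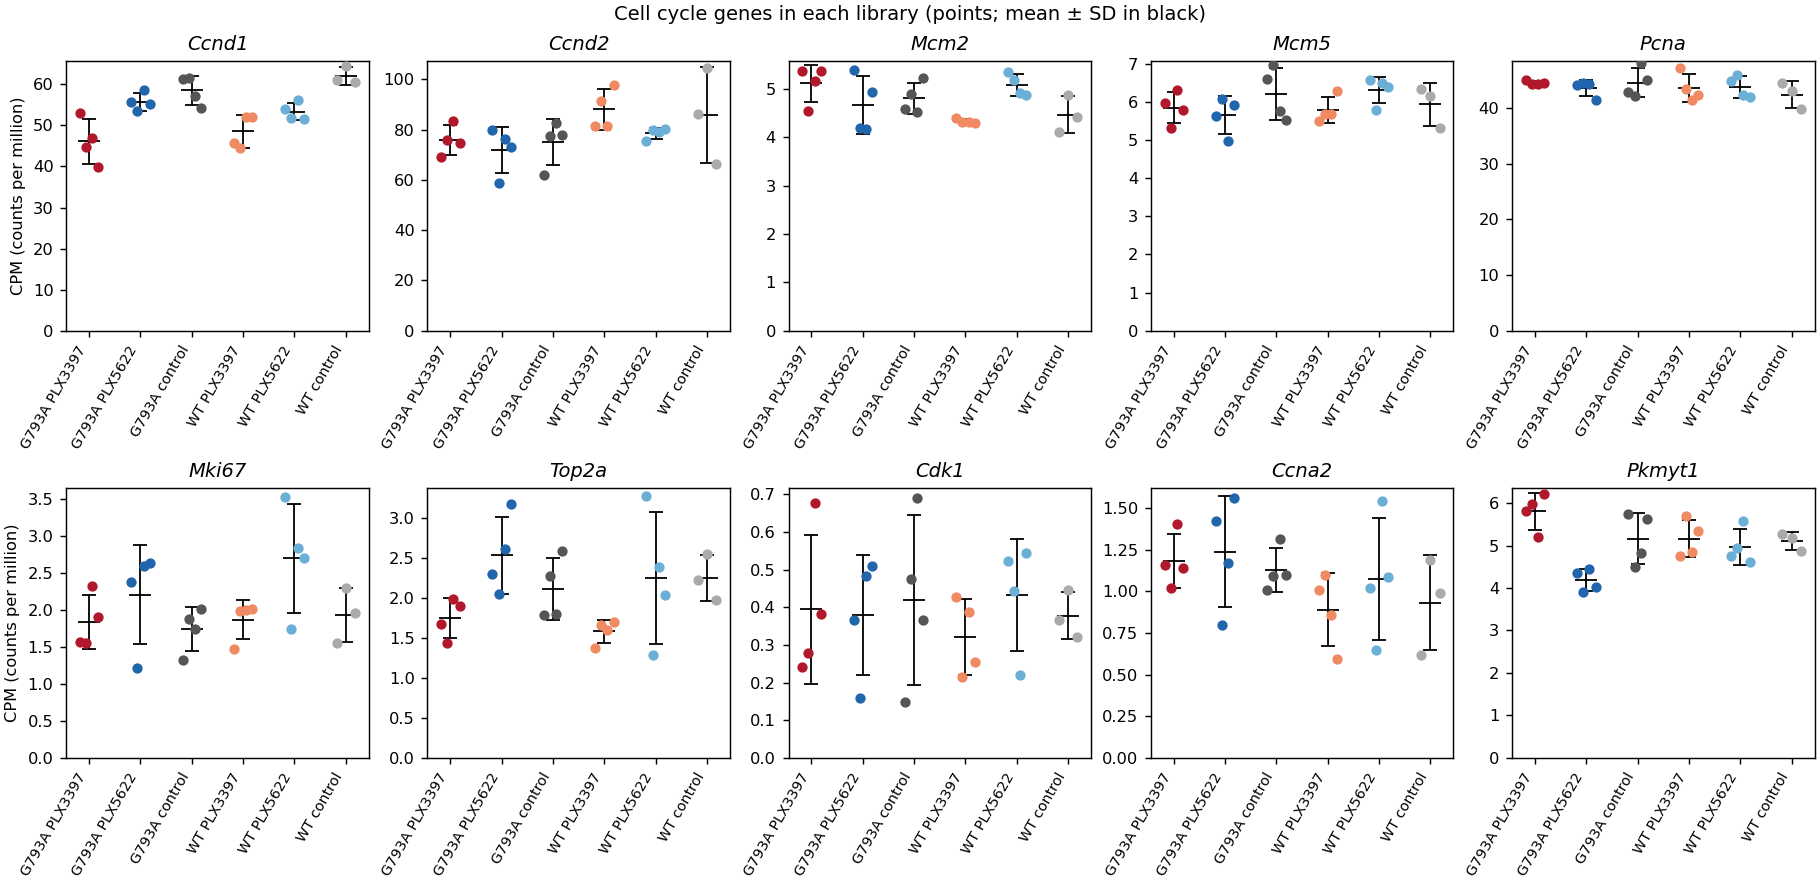
Level of each gene in each library, in CPM on linear axes that start at 0, for the 6 groups on the horizontal axis. Points are libraries and black bars the mean ± SD (n = 4, or 3 for WT control). Ccnd1 lies between 44.5 and 52.0 CPM in WT PLX3397 libraries and between 60.6 and 64.4 CPM in WT control libraries, while most other genes overlap across groups.

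Ccnd1 was the only one of the 10 genes called in any of the 9 comparisons. It encodes cyclin D1, the D-type cyclin that responds to growth factor signals. Ccnd1 stood at 45.8, 44.5, 52.0 and 52.0 CPM in WT PLX3397 libraries, against 61.1, 64.4 and 60.6 CPM in WT control libraries. All 4 inhibitor libraries were below all 3 controls. The log2 fold change was −0.35 ± 0.07, 78.3% of the WT control level, with an adjusted p of 0.0082 (edgeR). In this comparison 1.52% of all genes were called, 1.49% of all genes as lower, and 6.12% of all genes were lower with no overlap between the groups. The call was lost when WT control replicate 2, the highest control, was left out (log2 −0.32, adjusted p 0.0587), and it held in the other 15 alternatives.

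In G793A brains, Ccnd1 was at 53.0, 44.7, 47.0 and 39.7 CPM with PLX3397, against 61.3, 61.4, 57.3 and 54.1 CPM with control chow. The groups did not overlap, with 53.0 CPM as the highest inhibitor value and 54.1 CPM as the lowest control. The log2 fold change of −0.34 ± 0.07 missed the threshold, with an adjusted p of 0.194 (edgeR), in a comparison where 0.00617% of genes were called and 2.12% were lower with no overlap. DESeq2 called it (adjusted p 0.00768), as did edgeR without G793A PLX3397 replicate 1 (adjusted p 0.0133). The lowest values, 44.7 and 39.7 CPM, came from the 2 libraries with high Npas4. Without the 4 high-Npas4 libraries the log2 fold change was −0.23 with 2 G793A PLX3397 libraries left (adjusted p 0.743), and −0.33 in WT (adjusted p 0.0127).

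The PLX3397 effect on Ccnd1 in G793A minus that in WT was 0.01 ± 0.10 on the log2 scale, with a 95% interval of −0.20 to 0.22 (edgeR adjusted p 1, with 0.555% of genes called). Against WT controls, which also serve the WT comparisons, Ccnd1 in G793A PLX3397 brains was at −0.43 ± 0.07 (adjusted p 0.0564, with 0.00617% of genes called). That value crossed the threshold in 5 of 16 alternatives, namely with RLE scaling (adjusted p 0.0466), without the filter on low counts (0.0488), with limma-voom (0.0406), with DESeq2 (0.000222) and without G793A PLX3397 replicate 1 (0.00483). It did not in the other 11, where the adjusted p ran between 0.0574 and 0.631, the highest without the 4 high-Npas4 libraries (log2 −0.31).

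With PLX5622, Ccnd1 was at 55.7, 53.5, 58.7 and 55.1 CPM in G793A brains, which overlapped the G793A controls (log2 −0.07 ± 0.07, edgeR adjusted p 0.651). WT PLX5622 libraries held 53.9, 51.8, 56.1 and 51.6 CPM, all below the 3 WT controls. The log2 fold change in WT was −0.22 ± 0.07 with an adjusted p of 0.247 (edgeR), where 1.66% of genes were called and 5.26% were lower with no overlap. The PLX5622 effect in G793A minus that in WT was 0.15 ± 0.10 (−0.06 to 0.36, adjusted p 0.729), in a comparison with 0.808% of genes called. Side by side, the group means of Ccnd1 were 46.1 CPM in G793A PLX3397, 55.7 in G793A PLX5622, 58.5 in G793A control, 48.6 in WT PLX3397, 53.3 in WT PLX5622 and 62.0 in WT control brains.

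Ccnd2 encodes cyclin D2, the D-type cyclin of adult neural progenitors in the mouse. Its libraries lay between 58.7 and 97.8 CPM in the 5 groups other than WT control. The WT control libraries spread most widely, at 86.3, 105 and 66.2 CPM. No inhibitor comparison within a genotype gave a log2 difference beyond −0.12 ± 0.12 (WT PLX5622 over WT control, edgeR adjusted p 0.9), and each inhibitor group overlapped its control. Ccnd3, the remaining D-type cyclin, averaged 17.8 CPM in G793A PLX3397, 16.0 in G793A PLX5622, 18.2 in G793A control, 17.2 in WT PLX3397, 16.2 in WT PLX5622 and 17.7 in WT control brains, with no call in the 4 inhibitor comparisons within a genotype. In G793A PLX5622 brains Ccnd3 lay below its controls with no overlap, as 2.83% of all genes did (log2 −0.19 ± 0.08, edgeR adjusted p 0.241).

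The replication genes Mcm2 and Mcm5, helicase subunits, and Pcna, the polymerase clamp, stayed within narrow ranges. Mcm2 stood at 5.34, 5.17, 4.91 and 4.87 CPM in WT PLX5622 libraries, against 4.12, 4.87 and 4.41 CPM in WT control libraries, and the groups did not overlap, with 4.87 CPM as both the lowest inhibitor and the highest control value after rounding. On the log2 scale the difference was 0.19 ± 0.10 (edgeR adjusted p 0.707), and 3.68% of all genes were higher with no overlap there. Mcm2 in WT PLX3397 was 4.40, 4.32, 4.31 and 4.30 CPM (log2 −0.04 ± 0.10, adjusted p 0.958). Mcm5 differed from control by −0.14 to 0.09 on the log2 scale over the 4 inhibitor comparisons. Pcna was the most closely determined, with log2 differences of −0.03 to 0.05 and standard errors of 0.05 to 0.06.

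Mki67 encodes Ki-67, the protein used to mark cycling cells. With PLX5622 it was at 3.53, 1.74, 2.83 and 2.69 CPM in WT brains, against 1.55, 2.29 and 1.96 CPM in WT controls. This was a log2 fold change of 0.49 ± 0.25 (−0.02 to 0.99, edgeR adjusted p 0.626). The highest value, 3.53 CPM, came from the WT library high in Cbln3 and Prl, and without the 2 libraries high in Cbln3 the log2 fold change was 0.33 (adjusted p 0.693). In G793A brains with PLX5622, Mki67 was at 2.37, 1.22, 2.59 and 2.64 CPM, against 1.32, 1.88, 1.74 and 2.02 CPM in G793A controls. The lowest value, 1.22 CPM, came from the other library high in Cbln3. The log2 fold change was 0.34 ± 0.23 with all libraries and 0.54 without the 2 libraries (adjusted p 0.476 and 0.375), and the part of cerebellar tissue in these values was not tested. With PLX3397, Mki67 differed by 0.08 ± 0.23 in G793A and by −0.05 ± 0.25 in WT brains.

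Top2a encodes DNA topoisomerase II alpha, which untangles chromosomes. It stood at 1.38, 1.66, 1.60 and 1.70 CPM in WT PLX3397 libraries, against 2.23, 2.56 and 1.98 CPM in WT control libraries. The groups did not overlap, with a log2 fold change of −0.50 ± 0.23 whose 95% interval ran between −0.97 and −0.04, yet the adjusted p was 0.55 (edgeR), and 6.12% of all genes were lower with no overlap there. WT PLX5622 libraries held Top2a at 3.28, 1.29, 2.39 and 2.04 CPM (log2 0.01 ± 0.22, edgeR adjusted p 0.998). The highest came from replicate 1, the WT library high in Cbln3. The log2 fold change was −0.23 without replicate 1 and 0.19 without replicate 2. In G793A brains Top2a was at 1.67, 1.44, 1.99 and 1.91 CPM with PLX3397 and at 2.30, 2.05, 2.62 and 3.17 CPM with PLX5622, against 1.79, 2.27, 1.81 and 2.60 CPM with control chow. The PLX3397 effect in G793A minus that in WT was 0.23 ± 0.31 (−0.41 to 0.86). Ccna2, cyclin A2, and Cdk1, the mitotic kinase, overlapped across all groups. Their standard errors of 0.25 to 0.28 for Ccna2 and 0.42 to 0.47 for Cdk1 on the log2 scale left 95% intervals for Cdk1 that reach −1.20 in WT PLX3397 and 1.15 in WT PLX5622 brains.

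Pkmyt1, the kinase that holds CDK1 inactive, stood at 4.36, 3.90, 4.45 and 4.02 CPM in G793A PLX5622 libraries, against 5.74, 4.48, 4.83 and 5.62 CPM in G793A control libraries. The highest inhibitor value, 4.45 CPM, lay just below the lowest control value, 4.48 CPM, where 2.83% of all genes were lower with no overlap. Its log2 fold change was −0.30 ± 0.10 with an adjusted p of 0.161 (edgeR), and 0% of genes were called in this comparison. Beside that count of 0 called genes, 2639 genes had an unadjusted p under 0.05, DESeq2 called 343 genes and limma-voom 0. Without G793A control replicate 2, edgeR called 980 genes there and Pkmyt1 was among them (adjusted p 0.0373). In G793A PLX3397 libraries Pkmyt1 was at 5.83, 5.98, 5.21 and 6.21 CPM, and the WT groups lay between 4.62 and 5.69 CPM. The PLX5622 effect in G793A minus that in WT was −0.26 ± 0.15 (−0.57 to 0.04, adjusted p 0.692).

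**Figure D2:**
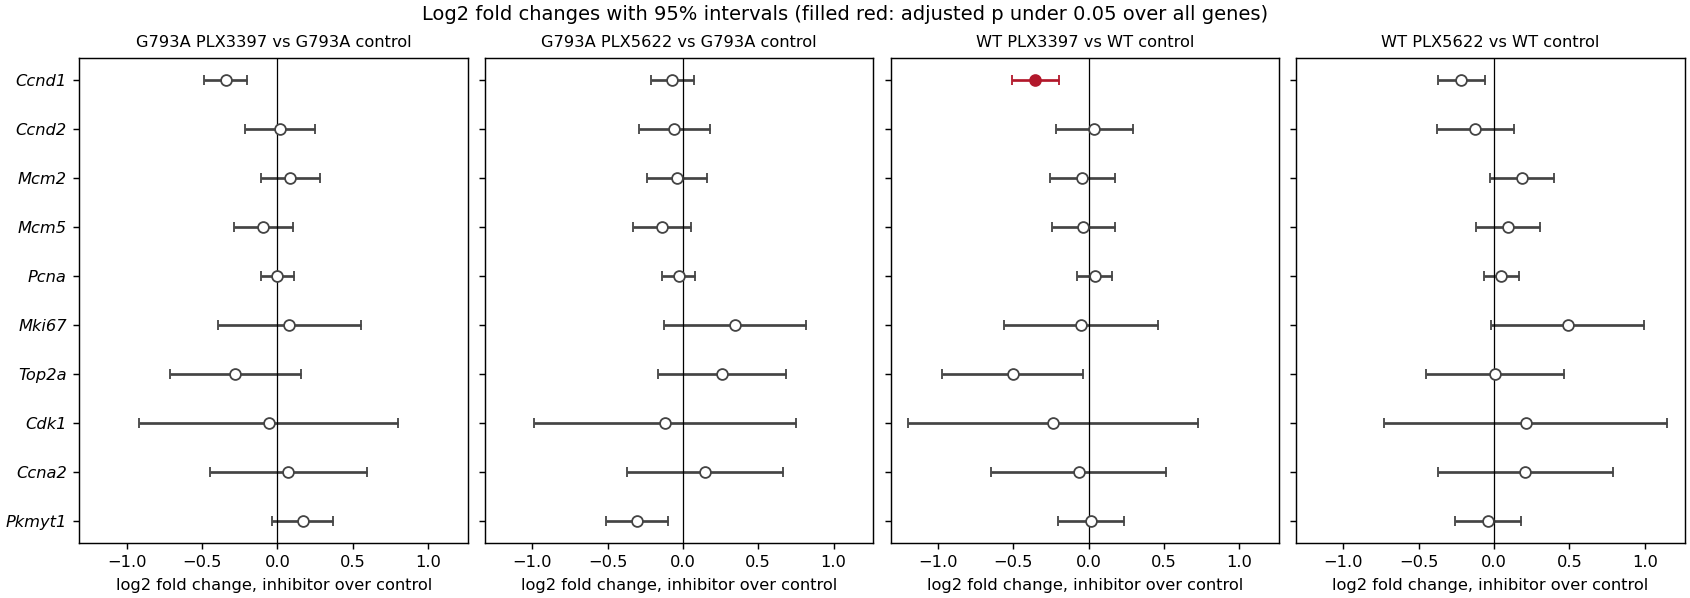
Log2 fold change of each gene, inhibitor over control of the same genotype (horizontal axis), with its 95% interval, in 4 panels. The filled red point is the only call at an adjusted p under 0.05 over all genes, Ccnd1 in WT PLX3397 brains at −0.35, and the intervals of Cdk1 are the widest.

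Over the 4 inhibitor comparisons within a genotype, 0 or 1 of the 10 genes were called, and the median log2 fold change of the 10 was 0.01 in G793A PLX3397, −0.05 in G793A PLX5622, −0.05 in WT PLX3397 and 0.07 in WT PLX5622 brains, against medians of all genes within 0.01 of 0. With an unadjusted p under 0.05, 1, 1, 2 and 1 of the 10 were counted in the same order, while 11.7%, 16.3%, 8.21% and 8.43% of all genes were. For G793A control over WT control, edgeR called 0 of the 10 genes and 0% of all genes, where 1803 genes had an unadjusted p under 0.05 and both DESeq2 and limma-voom called 0. Against WT controls, 0 of the 10 were called in G793A PLX5622 brains, with 0% of all genes called, 1095 genes at an unadjusted p under 0.05, 8 called by DESeq2 and 1 by limma-voom.

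Other cell cycle genes were taken from 4 lists. Of 44 S phase genes and 54 G2 and M phase genes, 0 were called by edgeR in each of the 4 inhibitor comparisons. With an unadjusted p under 0.05 (edgeR), S phase genes numbered 0 in G793A PLX3397, 9 in G793A PLX5622, 3 in WT PLX3397 and 6 in WT PLX5622 brains. G2 and M phase genes numbered 4, 4, 5 and 2 in the same order, where 11.7%, 16.3%, 8.21% and 8.43% of all genes were counted. The S phase medians were 0.02 to 0.04 and the G2 and M phase medians −0.02 to 0.00 on the log2 scale. Of 17 G1 kinases, cyclin and brakes 16 were tested and 0 were called, with medians of −0.05 to 0.01. Among the 4 genes that set the inhibitory phosphorylation of CDK1, Wee1 and the phosphatases Cdc25a, Cdc25b and Cdc25c, 0 were called. Wee1, which acts beside PKMYT1, averaged 24.0 CPM in G793A PLX3397, 26.4 in G793A PLX5622, 26.5 in G793A control, 26.1 in WT PLX3397, 25.6 in WT PLX5622 and 25.7 in WT control brains.

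Markers of cell types that divide in the adult brain were set beside these values. Of 12 oligodendrocyte precursor markers, 1 fell in WT PLX3397 and 1 in G793A PLX3397 brains, where 1.52% and 0.00617% of all genes were called. With PLX5622, 0 were called in either genotype. An unadjusted p under 0.05 (edgeR) was found for 5 of the 12 in G793A PLX3397, 3 in G793A PLX5622, 5 in WT PLX3397 and 0 in WT PLX5622 brains. The shares of all genes were 11.7%, 16.3%, 8.21% and 8.43% in the same order. The marker medians were −0.15 in G793A PLX3397, −0.03 in G793A PLX5622, −0.20 in WT PLX3397 and −0.03 in WT PLX5622 brains. Summed precursor markers were 430 to 543 CPM in G793A PLX3397, 489 to 560 in G793A PLX5622 and 535 to 588 in G793A control libraries. They were 491 to 515 CPM in WT PLX3397 and 497 to 576 in WT PLX5622 libraries. WT control sums reached 592 CPM, with a mean of 552. All WT PLX3397 sums lay below all WT control sums. In the other inhibitor comparisons within a genotype the sums overlapped. No marker was at 0 in a whole group. Of 12 markers of neural stem cells and neuroblasts 0 were called in the 4 comparisons, with medians of 0.02 to 0.17.

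The precursor marker that fell in G793A was Pdgfra, the receptor for platelet-derived growth factor that drives precursor division. It was at 48.2, 50.7, 47.9 and 35.9 CPM in G793A PLX3397 libraries, against 62.4, 66.8, 67.1 and 69.1 CPM in G793A control libraries (log2 −0.54 ± 0.08, edgeR adjusted p 0.00678). In WT PLX3397 brains Pdgfra was at 56.8, 50.3, 56.6 and 52.6 CPM, against 63.6, 67.0 and 69.5 CPM in WT controls (−0.30 ± 0.08, adjusted p 0.0716). The marker that fell in WT was Matn4, an extracellular matrix protein, at −0.51 ± 0.13 (adjusted p 0.034), and its value in G793A PLX3397 was −0.62 ± 0.12 (adjusted p 0.169). With PLX5622, Matn4 in G793A brains was at −0.37 ± 0.12 (edgeR adjusted p 0.155), below its controls with no overlap, as 2.83% of all genes were. In WT PLX5622 brains it was at −0.11 (edgeR adjusted p 0.924) and overlapped its controls. Pdgfra and Ccnd1 both lay below their controls, with no overlap, in PLX3397 brains of each genotype. With PLX5622, Pdgfra overlapped its controls, at 0.02 ± 0.08 in WT (edgeR adjusted p 0.986) and −0.01 ± 0.08 in G793A brains (0.972). Ccnd1 in WT PLX5622 brains lay below its controls with no overlap (−0.22 ± 0.07, edgeR adjusted p 0.247). Whether precursor content or microglial content takes part in the Ccnd1 values was not tested. Red blood cell markers summed to 37.2 to 100.4 CPM in WT PLX3397 libraries, against 173 to 306 CPM in WT control libraries. There 1 of 5 was called as lower, and all 5 had an unadjusted p under 0.05 (edgeR) and a negative log2 fold change (median −1.97). All 5 were also lower in G793A PLX3397 (median −0.90), G793A PLX5622 (−0.50) and WT PLX5622 brains (−0.41), with 0 called. The part of red blood cell markers in the Ccnd1 value was not tested.

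**Figure D3:**
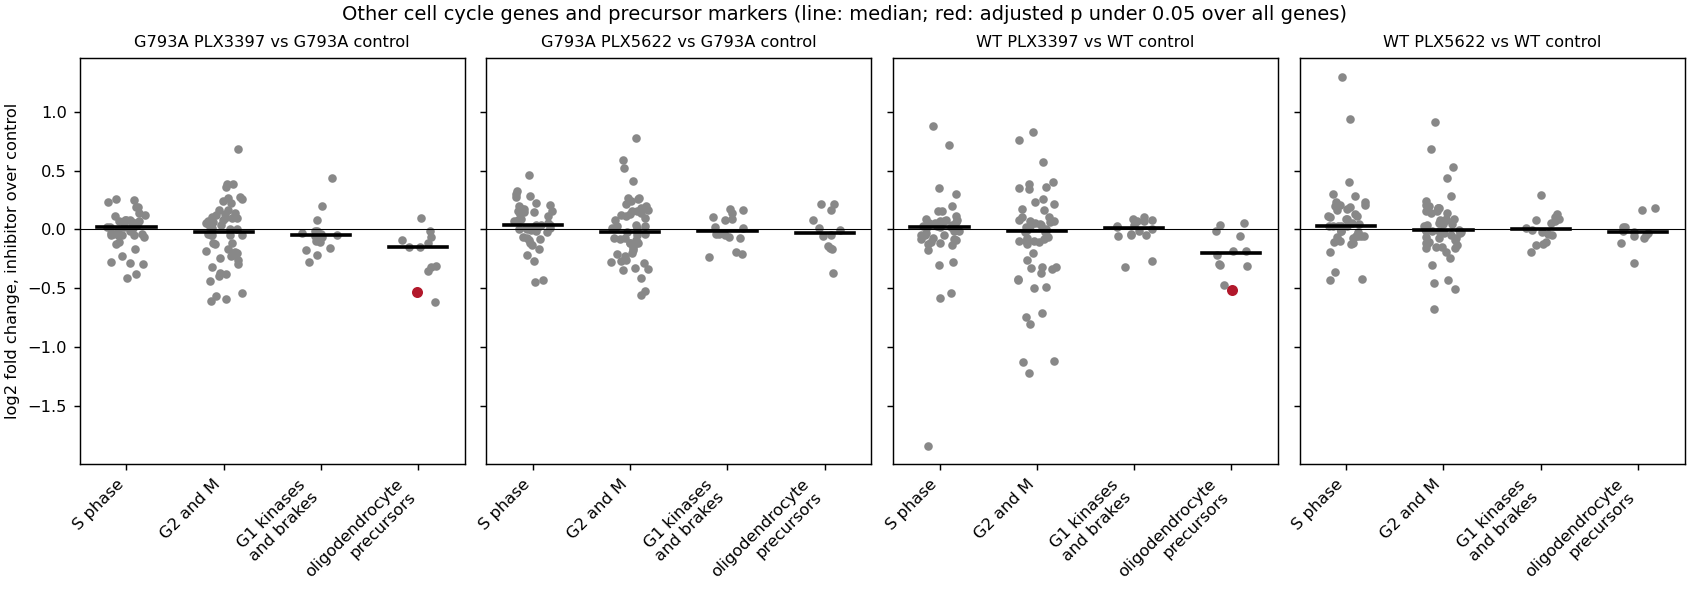
Log2 fold change, inhibitor over control (vertical axis), of S phase genes, G2 and M phase genes, G1 kinases and brakes and oligodendrocyte precursor markers in 4 comparisons. Points are genes, black lines medians and red points calls at an adjusted p under 0.05. The only 2 red points are Pdgfra in G793A PLX3397 and Matn4 in WT PLX3397 brains.

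Across all 23 libraries, the genes whose log2 CPM followed Ccnd1 most closely among 13953 genes with a mean of at least 1 CPM were Mex3c (Pearson r 0.81), C1ql1 (0.81) and Snx22 (0.802). C1ql1 is among the 12 precursor markers. Pdgfra ranked 4 with r 0.787, Matn4 ranked 14 with r 0.708, and Csf1r, a microglial marker, ranked 2332 with r 0.261. After each group's mean was removed, r was 0.755 for C1ql1, 0.476 for Pdgfra, 0.183 for Matn4 and −0.05 for Csf1r. Pdgfra and Matn4 were named because they fell with PLX3397, where Ccnd1 was lower too, so part of their r over all libraries was built in. Ranks of the remaining precursor markers were not taken. Of the 12 markers, 10 were lower and 2 higher in WT PLX3397, and 11 lower and 1 higher in G793A PLX3397 brains. The libraries share groups and differ in depth, so these values are a description.

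**Figure D4:**
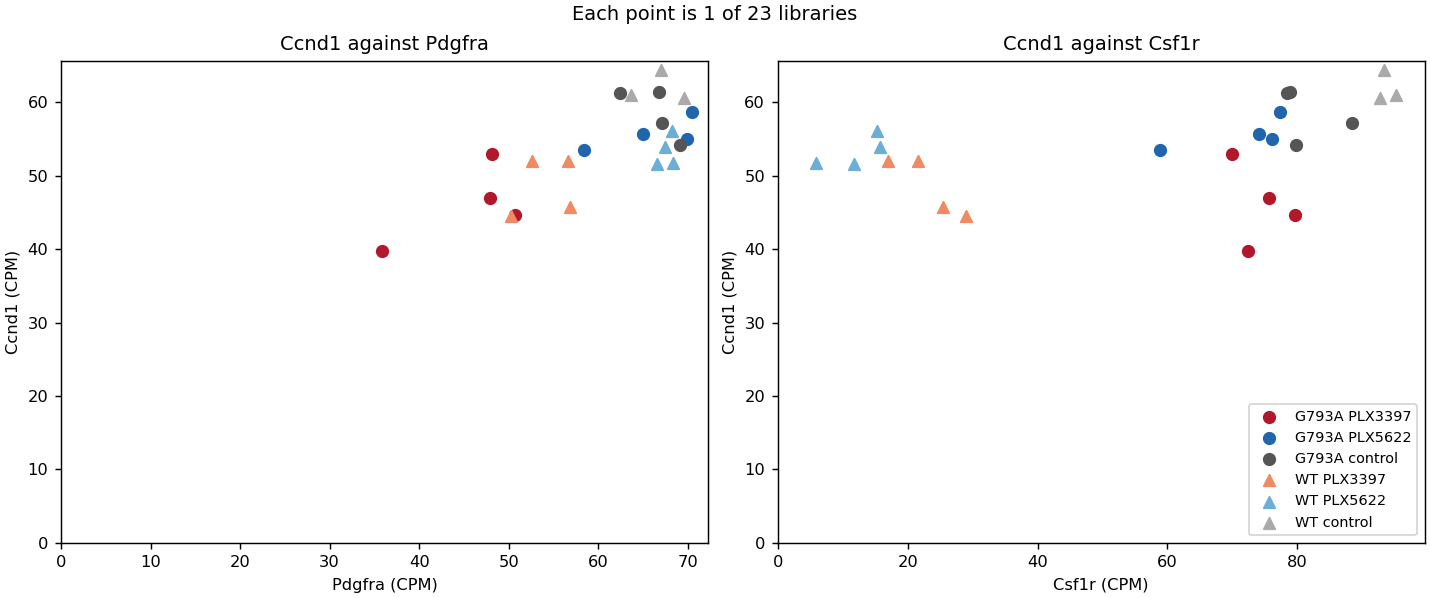
Ccnd1 against Pdgfra (left) and against Csf1r (right), all in CPM on linear axes that start at 0. Each point is 1 of 23 libraries, circles for G793A and triangles for WT. Libraries with PLX3397 lie below the controls of their genotype in both Ccnd1 and Pdgfra, while on the Csf1r axis the WT inhibitor libraries lie apart, at 5.92 to 28.9 CPM, and the G793A PLX3397 libraries do not.

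For Mki67 the closest genes were Ttpal (0.695), Top2a (0.656) and Fbn2 (0.643), and Dcx, which marks neuroblasts, ranked 8 with 0.612. Ccnd2 was followed most closely by Adamts9 (0.838), Crispld1 (0.83) and Tef (0.786), and Pkmyt1 by Mpi (0.784), Wdr24 (0.774) and Rogdi (0.771). Among the 10 genes themselves, with each group's mean removed, 5 of 45 pairs had r above 0.5 and the median r was 0.0845. Mki67 and Top2a, the genes whose promoters are printed above, were the closest pair at 0.807, and Mki67 and Ccna2 followed at 0.626. Cdk1 and Pkmyt1 had the lowest value, −0.566, on the small counts of Cdk1. The highest r of Ccnd1 with any of the other 9 was 0.334, with Mcm5.

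**Figure D5:**
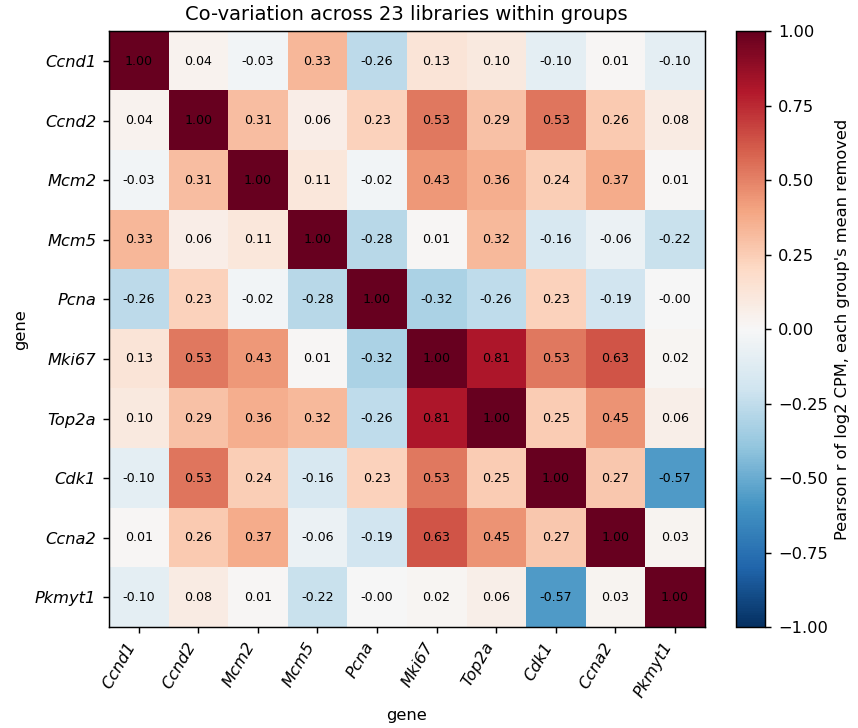
Pearson r of log2 CPM between each pair of the 10 genes over 23 libraries, after each group's mean was removed, on a color scale between −1 and 1. The highest value off the diagonal is 0.81 for Mki67 with Top2a, and the row of Ccnd1 stays between −0.26 and 0.33.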

How the data were processed

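Bulk brain RNA-seq libraries of 6 groups were analysed. Per the labels' protocols, RNeasy mini columns gave the RNA, oligo-dT selection and a stranded kit the libraries, and a NovaSeq the reads. The build GRCm39, DESeq2 1.26.0, FastQC 0.11.9 and kallisto 0.46.1 are named, without their roles, per the submitters' processing notes. The authors deposited estimated counts per gene symbol, of which 45.3% of values were not whole, so they were rounded here. A blank row with 0.00828 to 0.0151% of counts was left out.

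In R 4.3.3, edgeR 4.0.16 (TMM, filterByExpr with minimum counts of 10 and 15, robust quasi-likelihood, common biological coefficient of variation 0.0998) was fitted over all 23 libraries and 6 groups, for 9 comparisons. The standard error is the log2 fold change over the root of F. Alternatives were RLE scaling, no filter, DESeq2 1.42.0, limma-voom (limma 3.58.1), a replicate block, only the groups compared, a transcript length correction and leaving out libraries. Counts simulated with known changes were used to test the scripts. Genes named beyond the 10 are the called genes of each list with the smallest p (up to 4), Ccnd3, the CDK1 phosphorylation list, the 3 closest genes to Mki67, Ccnd1, Ccnd2 and Pkmyt1, and genes that set libraries apart, chosen after their values were seen, as were the ranks of Pdgfra, Matn4, Csf1r and Dcx. One gene that this rule names is not reported here. The 10 genes and all lists were chosen with earlier results of these data known.

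No pair of libraries was a duplicate: chi-square per degree of freedom was 5.85 to 72.7 within groups. Log2 CPM uses a prior count of 2. Lists of endothelial, astrocyte, red blood cell, choroid plexus, cerebellar and pituitary markers were also counted.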

Additional observations from a re-analysis of the deposited data

Results flagged for a closer look

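Among 105 groups of 4 libraries tested over 21 genes, 4 had 1 library far from the others, where chance gives about 1 in 20 groups, or 5.25. Mki67 in WT PLX3397 replicate 1 was at 1.47 CPM with the nearest library at 1.99 (gap 0.959 of the range). Pcna in G793A PLX5622 replicate 4 was at 41.4 CPM with the nearest at 44.2 (gap 0.894). P2ry12, a microglial purine receptor, was at 32.7 CPM in G793A PLX5622 replicate 3 with the nearest at 26.7 (gap 0.854). Cdc25b in G793A control replicate 4 was at 7.05 CPM with the nearest at 7.69 (gap 0.833).

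None of the 10 cell cycle genes passed the test of a difference in effect between genotypes with edgeR, DESeq2 or limma-voom, and 0 had an unadjusted p under 0.05 with edgeR, as 668 of 16209 genes had for PLX3397 and 1206 for PLX5622. The 3 named microglial markers did pass it with edgeR, where 0.555% of all genes were called for PLX3397 and 0.808% for PLX5622. They were named for their small p in the WT inhibitor comparisons. The same WT libraries enter this test, so their passing is not independent support. The PLX3397 effect in G793A minus that in WT was 2.14 for Siglech, 2.26 for P2ry12 and 2.30 for P2ry13 on the log2 scale. For PLX5622 the same differences were 2.89 for Siglech, 3.32 for P2ry12 and 3.65 for P2ry13.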

How the results depend on the processing

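Ccnd1 in WT PLX3397 brains kept its direction in all 16 alternatives and its call in 15. Alternatives were run on single values for the 10 genes only. For G793A PLX3397 over G793A control, edgeR called 1 gene, against 28 with DESeq2, which also called 1 of the 10 genes, and 0 with only the groups compared. For G793A PLX5622 over G793A control the count of 0 became 343 with DESeq2. For G793A PLX3397 over WT control the count of 1 became 2 with RLE scaling, 2 without a filter, 30 with DESeq2, 3 with limma-voom and 0 with the replicate block, only the groups compared or the length correction, and 1 of the 10 genes, Ccnd1, was called with RLE scaling, no filter, DESeq2 and limma-voom. For G793A PLX5622 over WT control the count of 0 became 8 with DESeq2, 1 with limma-voom and 3 with only the groups compared. The difference in PLX3397 effects held 90 genes, and 55 without the 4 high-Npas4 libraries, an alternative chosen after seeing the data, as was leaving out the 2 libraries high in Cbln3. The cause of these changes was not tested.

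Leaving out 1 library at a time gave 181 to 216 genes for WT PLX3397 (0 to 1 of the 10), 220 to 278 for WT PLX5622 (0), 0 to 23 for G793A PLX3397 over its control (0 to 1), 0 to 980 for G793A PLX5622 over its control (0 to 1), 0 to 4 and 0 to 1 for the same groups over WT control (0 to 1 and 0), 0 to 375 for G793A control over WT control (0), and 68 to 93 and 115 to 144 for the differences in effect (0). The counts of 980 and 375 both arose without G793A control replicate 2. Same replicate numbers did not pair the libraries: the median r of their deviations was −0.0174 over 55 pairs, against 0.00108 over 165 pairs with different numbers, and 4 of 23 libraries correlated best with their own number. With the replicate block, Ccnd1 in WT PLX3397 brains was at −0.33 (adjusted p 0.0215). Depth limits Cdk1 most.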

Other observations

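The red blood cell marker called in WT PLX3397 brains was Hba-a2, an alpha globin gene, which averaged 19.0 CPM there and 86.1 CPM in WT control brains and fell by 2.18 ± 0.53 on the log2 scale (edgeR adjusted p 0.0464). Its reads may be split with the near-identical copy Hba-a1. Of 8 endothelial markers 0 were called in the 4 inhibitor comparisons within a genotype, with medians of −0.17 to −0.13. Of 8 astrocyte, 6 choroid plexus, 6 cerebellar and 6 pituitary markers 0 were called there.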
